A study of Mus musculus with 8 samples.

Results

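The immunoglobulin constant region genes are described here in mouse cells that the study isolated as cells of the periosteum, the tissue sheath of bone. The 8 genes were chosen by their symbols among the 32285 genes of the count matrices. They are the heavy chain genes Ighm, Ighd and Igha, the kappa light chain gene Igkc, the lambda light chain genes Iglc1, Iglc2 and Iglc3, and Jchain, which encodes the joining chain. All 8 were detected in both libraries. The cells came from the left femurs and tibias of male C57BL/6J mice, 16 weeks old, kept on chow of a normal diet (ND) or on high-fat chow (HFD). The bones were digested with collagenase and dispase, and the released cells were sequenced by droplet-based single-cell RNA sequencing. Where in the bone a cell had lain, in the periosteum or in the marrow, cannot be told from these data. The labels name 4 samples per diet, but the files hold 1 pooled matrix per diet with no map from cells to mice. Each diet is therefore 1 library of pooled animals. No test between diets was possible, and all intervals below are 95% intervals that cover counting error only, not the spread between mice or between cells.

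An antibody is built from paired heavy and light chains, and the constant region of the heavy chain sets its class. A developing B cell first makes a mu heavy chain from Ighm and pairs it with the surrogate light chain encoded by Vpreb1, Vpreb2 and Igll1. It then rearranges a kappa or a lambda light chain gene with the Rag1 and Rag2 recombinase, leaves the precursor pool as an IgM+ immature cell, and adds IgD from Ighd by alternative splicing as it matures. A cell usually keeps only 1 kind of light chain. Plasma cells secrete antibody in bulk, and the joining chain links IgM and IgA into polymers.

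The 3 lambda genes lie on the minus strand of chromosome 16, with Iglc1 (from 19061618) and Iglc3 (from 19065230) closer to each other than to Iglc2 (from 19198396). All 3 resemble each other, which bears on how far reads could be assigned to each of them. Their last 120 coding bases are shown 5′ to 3′ from GENCODE M21 transcripts (build GRCm38, the same assembly as mm10). Reads that match near-identical genes may be dropped or counted for the other copy. Capitals mark the 39 positions at which the 3 genes are not all alike.
Iglc1: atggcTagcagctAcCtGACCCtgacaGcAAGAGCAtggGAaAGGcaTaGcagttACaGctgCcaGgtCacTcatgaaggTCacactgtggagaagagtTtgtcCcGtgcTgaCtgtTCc
Iglc2: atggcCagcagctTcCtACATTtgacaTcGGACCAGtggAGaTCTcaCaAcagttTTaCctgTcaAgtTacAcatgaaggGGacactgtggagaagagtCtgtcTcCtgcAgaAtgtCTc
Iglc3: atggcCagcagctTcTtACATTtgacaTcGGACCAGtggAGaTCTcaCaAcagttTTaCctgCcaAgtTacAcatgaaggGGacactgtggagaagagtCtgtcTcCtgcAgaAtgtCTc
These stretches cover chr16:19061755-19061874 for Iglc1, chr16:19198539-19198658 for Iglc2 and chr16:19065368-19065487 for Iglc3, all within the coding part of the constant exon. Iglc2 and Iglc3 were identical at 118 of the 120 bases, whereas Iglc1 matched either of them at 82. Over the whole aligned coding sequence, Iglc2 and Iglc3 were 96.5% identical (303 of 314 bases) and shared an unbroken identical stretch of 79 bases. Iglc1 was 75.6% identical to Iglc2 and 76.6% to Iglc3. Levels of Iglc2 and Iglc3 are therefore uncertain against each other, and their sum with Iglc1 (lambda UMIs) is given beside them. Ighm, Ighd and Igha lie on the minus strand of chromosome 12, at 113418558 to 113422730, 113406604 to 113416324 and 113254830 to 113260236. Igkc lies on the plus strand of chromosome 6 (70726435 to 70726966), and Jchain on the minus strand of chromosome 5 (88519809 to 88527891).

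A barcode was kept if over 500 but under 8000 genes were detected in it and under 20% of its UMIs were mitochondrial, which left 6029 of 6314 barcodes in ND and 6224 of 6636 in HFD. A UMI (unique molecular identifier) stands for 1 captured transcript. The libraries held 48558889 and 49940976 UMIs, the median cell had 4610 UMIs in ND and 4823.5 in HFD, and 15 barcodes occurred in both libraries. The 8 genes took 0.330% of the UMIs of kept ND cells and 0.462% of those of HFD cells, and 0.296% and 0.274% without 8 cells with very high Jchain. Clustering without immunoglobulin genes gave 2996 B lineage-like cells of 12253, 1521 in ND (25.2%, 24.1 to 26.3%) and 1475 in HFD (23.7%, 22.7 to 24.8%), with a median of 3873 and 3816 UMIs. At least 7 of the 8 B lineage markers marked each of their clusters, and Cd79a, a signaling chain of the B cell receptor, was detected in 99.7% and 99.9% of them.

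The B lineage-like cells fell into 8 sub-clusters, which were grouped into 5 stages by marker genes that include none of the 8 members. Precursor-like cells with high Vpreb1 made up 3.81% (ND) and 4.68% (HFD) of them, and cycling precursor-like cells 8.28% and 8.47%. Precursor-like cells with high Rag1 made up 11.7% and 16.9%, immature B-like cells 50.9% and 46.1%, and mature B-like cells 25.3% and 23.9%. The Rag1-high stage held a sub-cluster of 73 ND and 4 HFD cells with Gadd45g, Klf2, Jun and Hspa1b among its leading genes, and without it the ND share of that stage was 7.25%. Stress genes such as Hspa1b and Hspa1a also led a mature B-like sub-cluster of 108 ND and 50 HFD cells. The immature B-like name rests on the order in which the marker lists were applied. Of its sub-clusters, that of 720 cells scored higher on the mature than on the immature list (1.15 against 0.93, mean log2 fold), and that of 734 cells scored 0.76 and 0.78. The levels of Ighd in these sub-clusters were 127 and 129 UPM in ND and 144 and 146 UPM in HFD, and those of the mature B-like sub-clusters were 553 and 558 UPM in ND and 695 and 667 UPM in HFD. Levels are given as UMIs per 1000000 UMIs of the cell group (UPM), with no correction for gene length. Stage values leave out the 8 cells with very high Jchain, of which 1 was B lineage-like, and those cells are described separately.

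Ighm was read from the earliest stage on. Its level was 2261 UPM (2093 to 2440) in ND and 2188 UPM (2047 to 2335) in HFD Vpreb1-high cells, and 1831 and 1952 UPM in cycling cells. It stood at 5433 UPM (5253 to 5619) and 5991 UPM in Rag1-high cells, at 5296 and 5689 UPM in immature B-like cells, and at 1778 and 1934 UPM in mature B-like cells. The Rag1-high and immature stages were thus the high ones in both libraries. They differed by less than the counting error in ND (ratio 0.975, 0.939 to 1.01) and by 0.95 (0.920 to 0.980) in HFD. Ighm was 2.97-fold (ND) and 3.07-fold (HFD) higher in Rag1-high than in cycling cells and 2.98-fold and 2.94-fold lower in mature than in immature B-like cells. Every Rag1-high and immature B-like cell had an Ighm UMI in both libraries, as did 97.1% and 98.9% of mature B-like cells.

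Ighd, which is made from the same transcription unit as Ighm, was the only member whose level was higher in mature than in immature B-like cells by 2-fold or more in both libraries. Its level was 19.7 UPM (ND) and 18.6 UPM (HFD) in cycling cells and 41.3 and 41.8 UPM in Rag1-high cells. It reached 128 and 146 UPM in immature and 554 (518 to 593) and 691 UPM (647 to 737) in mature B-like cells. The intervals of the mature stage did not overlap those of any earlier stage. The mature level was 4.33-fold (3.84 to 4.89) the immature one in ND and 4.75-fold (4.21 to 5.36) in HFD. For every 100 Ighm UMIs, immature B-like cells held 2.42 and 2.56 Ighd UMIs and mature B-like cells 31.2 and 35.7. Ighd UMIs were found in 80.5% and 85.8% of mature B-like cells against 28.9% and 29.9% of immature ones. After each cell was thinned to 1000 UMIs these shares were 39.2% and 47.6% against 11.1% and 12.4%, and 0.0417% and 0.124% in neutrophil-like cells, which serve here as a rough measure of free RNA.

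Igkc was the most abundant member in Rag1-high, immature and mature B-like cells. It stood at 572 UPM (489 to 666) in ND and 255 UPM (208 to 308) in HFD Vpreb1-high cells, and at 1291 and 1425 UPM in cycling cells. Levels were 7724 and 7786 UPM in Rag1-high cells, 14300 (14170 to 14440) and 14990 UPM (14840 to 15130) in immature and 8412 and 9125 UPM in mature B-like cells. The order of the stages was the same in both libraries. In the Vpreb1-high cells 41.4% (ND) and 49.3% (HFD) had an Igkc UMI, against 24.5% and 31.4% of neutrophil-like cells, and the ND level rested on few cells, since 2 cells with 69 and 59 Igkc UMIs held 128 of the 168. Without the 2 highest cells of each library it was 148 UPM (106 to 201) in ND and 167 UPM (129 to 213) in HFD.

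Apart from single Vpreb1-high cells, the lambda genes appeared later than Igkc. In cycling cells, Iglc1 stood at 29.8 UPM (ND) and 21.8 UPM (HFD), Iglc2 at 53.8 and 41.3 UPM and Iglc3 at 22.1 and 20.9 UPM, while neutrophil-like cells held 6.80 to 17.0 UPM of each. The neutrophil-like levels rested in part on single cells. The highest cell held 129 of the 273 Iglc1 UMIs in ND and 89 of the 251 Iglc3 UMIs in HFD. In Rag1-high cells, Iglc1 was at 1202 and 1549 UPM, Iglc2 at 1385 and 1346 UPM and Iglc3 at 959 and 983 UPM. Summed lambda was 33.5-fold (29.2 to 38.7) higher there than in cycling cells in ND and 46.1-fold (39.7 to 53.9) in HFD, whereas Igkc was 5.99-fold and 5.46-fold higher. Without the 5% of cells with the highest doublet scores the steps were larger, for example 194-fold and 789-fold for Iglc1, since most of the few lambda UMIs of cycling cells lay in those cells. Vpreb1-high cells of HFD held 79 Iglc1 UMIs, all in 1 cell, and those of ND held 2. Iglc2 stood at 98.8 UPM (ND) and 128.5 UPM (HFD) in Vpreb1-high cells, above its levels in cycling cells. The highest cell held 28 of the 29 Iglc2 UMIs in ND and 49 of the 53 in HFD. Summed lambda was thus at 129 and 337 UPM there, beside 572 and 255 UPM of Igkc.

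The lambda genes also parted from each other between the immature and the mature stage. Iglc1 was at 3672 UPM (ND) and 3290 UPM (HFD) in immature and at 238 (215 to 264) and 269 UPM (242 to 298) in mature B-like cells, which is 15.4-fold (13.9 to 17.1) and 12.2-fold (11 to 13.6) lower. Iglc2 went from 3447 and 3210 UPM to 1225 and 1100 UPM, 2.81-fold and 2.92-fold lower. Iglc3 went from 1820 and 1906 UPM to 662 and 641 UPM, 2.75-fold and 2.97-fold lower. Igkc was 1.70-fold and 1.64-fold lower over the same step. The near-identical pair Iglc2 and Iglc3 thus moved by about the same factor, and the interval of Iglc1 lay apart from both. An Iglc1 UMI was found in 91.1% and 86.8% of immature but in 25.3% and 20.5% of mature B-like cells.

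Igha and Jchain were low in all 5 stages. Igha lay between 6.04 and 34.9 UPM and Jchain between 2.79 and 13.1 UPM, while neutrophil-like cells held 14.0 (ND) and 12.3 UPM (HFD) of Igha and 6.80 and 5.69 UPM of Jchain. Some stages lay above the neutrophil-like cells with intervals apart, for example Igha in Rag1-high (34.9 UPM, 21.9 to 52.9) and mature B-like cells of ND (31.9 UPM, 23.6 to 42.2), and Jchain in immature B-like cells of HFD (13.1 UPM, 9.10 to 18.2). Igha in cycling cells lay below (6.25 and 6.04 UPM). By cells, an Igha UMI was found in 5.17% to 9.55% and a Jchain UMI in 2.34% to 7.14% of the cells of a stage, against 8.19% and 6.66% and against 4.08% and 3.66% of neutrophil-like cells. No stage had more than 78 Igha or 35 Jchain UMIs in a library. The 8 genes together took 0.303% (ND) and 0.283% (HFD) of the UMIs of Vpreb1-high cells, 0.326% and 0.349% in cycling, 1.68% and 1.77% in Rag1-high, 2.87% and 2.93% in immature and 1.29% and 1.38% in mature B-like cells.

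**Figure D1:**
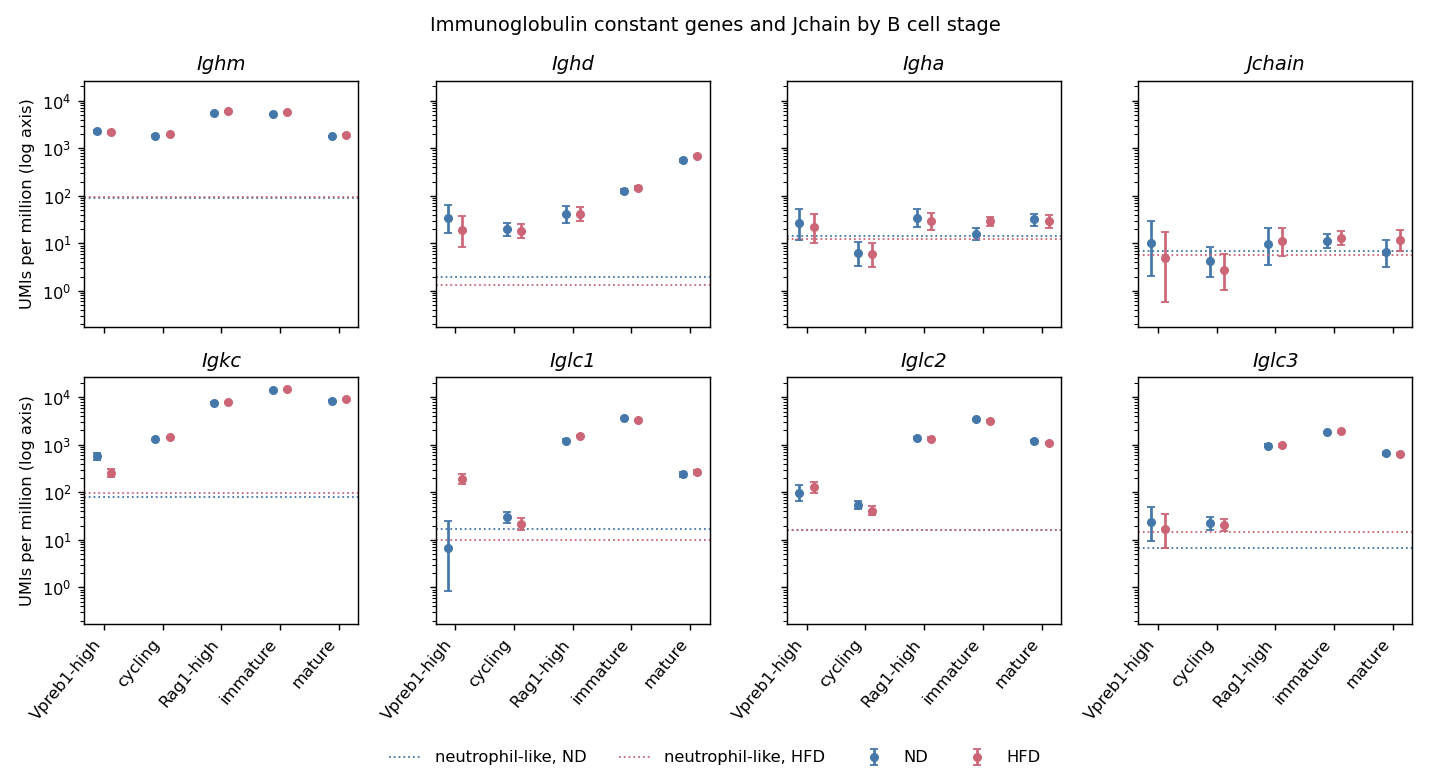
Level of each member by B cell stage, in UPM on a log axis, for the ND and HFD libraries, with 95% Poisson intervals as bars and dotted lines at the level in neutrophil-like cells. Ighd is highest in the mature stage, Iglc1 drops from 3672 and 3290 to 238 and 269 UPM between the immature and mature stages, and Igha and Jchain stay at or under 34.9 UPM in every stage.

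The members were then set against all genes. A gene was counted when its level differed by 2-fold or more in the same direction in both libraries, a descriptive limit with no test behind it. By this count all 8 members were higher in Rag1-high than in cycling cells, against 11.6% of all genes, and 0 were lower, against 11.8%. For Igha and Jchain this rested on at most 26 UMIs in any group, and the interval of the Jchain ratio held 1 in ND. The share of cells with an Igha UMI was 8.73% in cycling and 9.55% in Rag1-high cells of ND and 6.40% and 8.43% in HFD, and that with a Jchain UMI was 7.14% and 3.37% in ND and 4.00% and 4.02% in HFD. An Ighd UMI was found in 22.2% (ND) and 20.0% (HFD) of cycling and 12.92% and 12.85% of Rag1-high cells. After each cell was thinned to the same depth, these shares were 5.56% and 3.20% against 5.06% and 2.01%. By share of cells, Ighd was thus not higher in Rag1-high cells. The median cell had 28.5 and 32 Ighm UMIs in cycling and 18 and 21 in Rag1-high cells. After thinning, 83.3% and 79.2% of cycling and 98.9% and 98.8% of Rag1-high cells had an Ighm UMI. The median depth was 11087.5 UMIs in cycling and 3383.5 in Rag1-high cells of ND, and 11691 and 3412 in HFD. Its part in the ratios was not tested. From Rag1-high to immature B-like cells, 3 members were higher (Ighd, Iglc1 and Iglc2), against 4.29% of all genes, and 0 were lower, against 4.67%. From immature to mature B-like cells, 1 member was higher (Ighd), against 2.82%, and 4 were lower (Ighm, Iglc1, Iglc2 and Iglc3), against 9.97%.

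The kappa share of the light chain UMIs was then examined cell by cell. Of the B lineage-like cells, 1382 in ND and 1340 in HFD had at least 10 light chain UMIs. A cell was called kappa when at least 90% of them were Igkc, lambda when at most 10% were, and mixed otherwise. In ND, 357 cells were kappa, 76 lambda and 949 mixed, and in HFD 405 were kappa, 94 lambda and 841 mixed. Lambda cells made up 17.6% (14.1 to 21.5%) of the called ND cells and 18.8% (15.5 to 22.6%) of the called HFD cells, so that the libraries differed by less than the counting error. Mixed cells were the majority in both, at 68.7% and 62.8%.

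The calls differed sharply between stages. Cycling cells had 0 lambda cells among 70 called in ND and 83 in HFD, which allows a share of up to 5.13% and 4.35%, and only 7.90% and 4.6% of them were mixed. In Rag1-high cells, lambda made up 11.1% (5.46 to 19.5%) and 20.9% (14.4 to 28.8%) of the called cells, and mixed cells were 44.8% and 41.7% of all. Among the called cells of a stage, immature B-like cells had the highest lambda share, 42.6% (34.3 to 51.2%) in ND and 39.6% (31.4 to 48.2%) in HFD. Mixed cells made up 81.8% and 79.5% of them. In mature B-like cells the lambda share was 4.58% (1.70 to 9.70%) and 7.69% (3.90 to 13.4%), and 64.4% and 58.3% were mixed. The immature and mature intervals of the lambda share did not overlap in either library. As a share of all cells with at least 10 light chain UMIs, mixed ones included, lambda cells were 6.14% (2.98 to 11%) in ND and 12.2% (8.24 to 17.1%) in HFD Rag1-high cells, 7.76% (5.98 to 9.88%) and 8.11% (6.17 to 10.4%) in immature and 1.63% (0.601 to 3.52%) and 3.21% (1.61 to 5.67%) in mature B-like cells. By this measure the order of the Rag1-high and immature stages was not the same in both libraries, and their intervals overlapped in each.

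**Figure D2:**
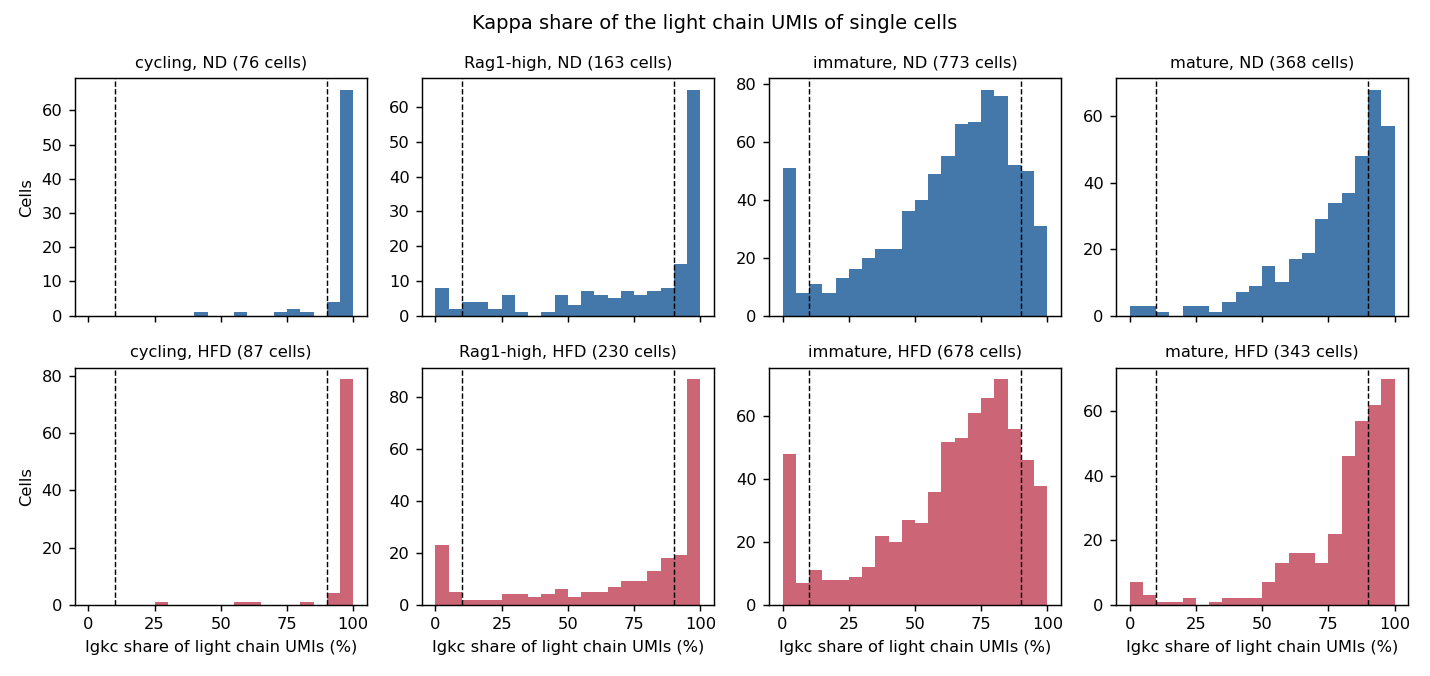
Number of cells by Igkc share of the light chain UMIs, in bins of 5%, for 4 stages (columns) and both libraries (rows), among cells with at least 10 light chain UMIs. Dashed lines mark 10% and 90%. Cycling cells pile up at 100%, whereas immature B-like cells spread between the lines, with medians of 67.7% in ND and 69.9% in HFD.

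Variable gene UMIs were counted in the same cells. In kappa cells of both libraries together, 1.95 Igkv UMIs were counted per 100 Igkc UMIs, and mixed cells had 1.91 (1.82 to 2.00). By library, kappa cells had 2.32 (2.10 to 2.55) in ND and 1.61 (1.44 to 1.80) in HFD. Mixed cells had 2.17 (2.03 to 2.30) and 1.625 (1.505 to 1.751), so that the ND ratio was the higher one for both calls. In lambda cells, 0.963 Iglv UMIs were counted per 100 lambda constant UMIs, and mixed cells had 1.03 (0.936 to 1.12). Within stages the ratios, again of both libraries together, were not alike. Per 100 Igkc UMIs, mixed and kappa cells had 1.89 (1.79 to 2.00) and 1.41 (1.22 to 1.61) Igkv UMIs in the immature stage, 4.37 (3.79 to 5.0) and 3.34 (2.92 to 3.80) in the Rag1-high stage and 1.66 (0.885 to 2.84) and 3.90 (3.36 to 4.50) in the cycling stage. Per 100 lambda UMIs, mixed and lambda cells had 1.00 (0.906 to 1.11) and 0.991 (0.812 to 1.20) Iglv UMIs in the immature and 1.48 (1.09 to 1.96) and 0.771 (0.449 to 1.23) in the Rag1-high stage. The few Igkc UMIs of lambda cells came with 59.8 Igkv UMIs per 100 (50.3 to 70.6), and the few lambda UMIs of kappa cells with 6.92 Iglv UMIs per 100 (5.73 to 8.27). The value of 59.8 was 80.6 (64.5 to 99.4) in ND and 42.1 (31.5 to 55.0) in HFD. The median mixed cell had 41 Igkc UMIs and 5, 7 and 5 UMIs of Iglc1, Iglc2 and Iglc3. Of the 1790 mixed cells, 14 were among the 5% of cells with the highest doublet scores, as were 14 of the 762 kappa and 0 of the 170 lambda cells. The mixed ones were unevenly spread, with 9 of 10 in the cycling and 2 of 3 in the Vpreb1-high stage. In the immature stage they were 3 of 1171. The Igkv ratio of mixed cycling cells was thus taken from 10 cells, 9 of them with such scores. The median depth was 3780 UMIs in mixed, 4043 in kappa and 3181 in lambda cells. What part free RNA or cells sharing a droplet had in the mixed calls was not tested. For scale, neutrophil-like cells held 39.6 UPM (ND) and 40.8 UPM (HFD) of lambda and 80.3 and 97.6 UPM of Igkc.

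Most lambda cells carried several lambda constant genes. In the 170 lambda cells Iglc1 gave 52.7% of the lambda UMIs, Iglc2 35.9% and Iglc3 11.4%. Of the 169 with at least 10 lambda UMIs, 143 had no lambda gene with 90% or more of them, 19 were dominated by Iglc1, 6 by Iglc2 and 1 by Iglc3. Among mixed cells the make-up changed with the stage. Iglc1 gave 36.1% of the lambda UMIs of mixed immature B-like cells but 10.8% of those of mixed mature B-like cells, where Iglc2 gave 57.7%. The median mixed mature B-like cell had 0 Iglc1, 4 Iglc2 and 3 Iglc3 UMIs against 25 Igkc UMIs.

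Jchain marked a handful of cells with a secretory pattern. In 8 cells, 2 in ND (0.0332% of kept cells, 0.00402 to 0.120%) and 6 in HFD (0.0964%, 0.0354 to 0.210%), at least 40 Jchain UMIs were counted, while the next cell in either library had 3. The limit was set after the values were seen. The cells had 45 to 4009 Jchain UMIs and were all among the 5% with the highest doublet scores. Of them, 6 clustered with hematopoietic progenitor-like cells, 1 was mature B-like and 1 lay in an unnamed cluster.

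The members took between 26.2% and 65.9% of the UMIs of these cells. ND cell 1 had 27192 UMIs in all, with 2616 of Igha, 10178 of Igkc and 932 of Jchain, and no Ighm. ND cell 2, the mature B-like cell, had 1961 UMIs of Igha, 558 of Igkc and 113 of Jchain. Both ND cells thus carried IgA with kappa. HFD cell 1 stood alone in its light chain, with 9863 UMIs of Ighm, 21732 of Iglc2, 1 of Igkc and 4009 of Jchain. HFD cell 2 had 4790 UMIs of Ighm, 25300 of Igkc and 3214 of Jchain. HFD cell 3 carried IgA, with 1606 UMIs of Igha, 8768 of Igkc and 833 of Jchain, together with 23 of Ighg2b, an IgG heavy chain gene. HFD cell 4 (3217 UMIs of Ighm, 4816 of Igkc, 593 of Jchain) and HFD cell 5 (657, 1669 and 145) were both IgM with kappa, with 22 and 8 UMIs of Ighg3, another IgG gene. HFD cell 6 had 684 UMIs of Igha, 843 of Igkc and 45 of Jchain. In all, 4 cells were led by Igha and 4 by Ighm, and 7 of the 8 by Igkc.

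In HFD cell 1 the assignment between the look-alike genes could be read in part. It had 21732 Iglc2 UMIs but only 14 of Iglc3 and 15 of Iglc1, although Iglc2 and Iglc3 share most of their bases in the stretches shown above. In this cell, spill of Iglc2 molecules into the Iglc3 count thus came to 14 UMIs at most. Reads dropped because they match both genes would not show in these counts.

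**Figure D3:**
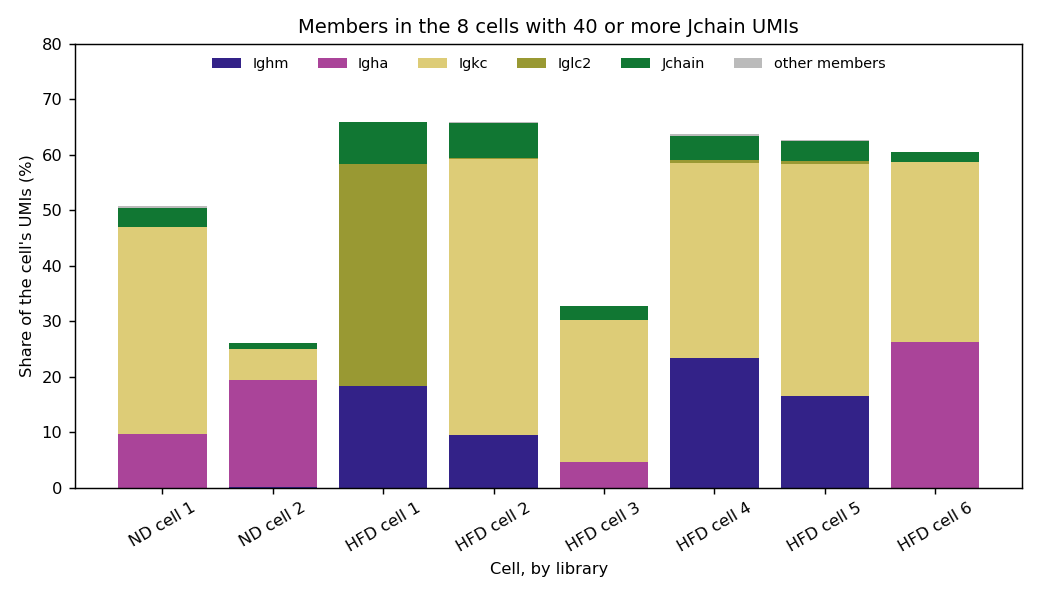
Share of each cell's UMIs taken by the members in the 8 cells with 40 or more Jchain UMIs, 2 from ND and 6 from HFD, as stacked bars in percent. Bars reach 26.2% to 65.9%, both ND cells and HFD cells 3 and 6 are led by Igha and Igkc, and HFD cell 1 is the only bar with Iglc2 as light chain.

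These 8 cells decided the library totals of several members. They held 80.6% of all Jchain UMIs of kept ND cells and 96.8% of those of HFD cells, 89.3% and 80.2% of Igha, and 64.0% of the HFD Iglc2 UMIs. All 18 genes of a plasma cell program and secretion list were found in at least 1 of them, 9 in every cell, and 10 to 18 per cell. Mzb1, a chaperone of secretory B cells, stood at 2891 UPM (ND) and 2484 UPM (HFD) in them against 529 and 526 UPM in B lineage-like cells. These pooled values rested on few cells, since ND cell 1 held 106 of the Mzb1 UMIs and ND cell 2 held 2, and HFD cell 3 held 245 while the other HFD cells had 2 to 75. By cell, Mzb1 lay between 197 and 7143 UPM, and in ND cell 2 and HFD cell 2 (513 UPM) it was below the level of the B lineage-like cells. Xbp1, a regulator of the secretory apparatus, stood at 964 and 715 UPM against 87.4 and 66.6 UPM, and by cell between 437 and 2508 UPM. Tnfrsf17, the plasma cell receptor BCMA, was at 321 and 201 UPM, with 0 UMIs in 3 of the HFD cells and with 2 UMIs in ND and 0 UMIs in HFD B lineage-like cells. Of the 7 genes of the surrogate light chain and recombination list, 2 were found in any of these cells. Of 18 genes of a B cell receptor complex and signaling list, 17 were found in at least 1 of them, 0 in every cell, and 0 to 11 per cell. No share over all genes stands beside these counts, and the depth of the cells ran from 2598 to 54075 UMIs.

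A rule on plasma genes picked most of these 8 cells and many others. It asked for a UMI of Mzb1 and of Xbp1, none of Siglech, and a UMI of at least 2 of 5 genes (Sdc1, Tnfrsf17, Derl3, Prdm1 and Slamf7). It was met by 37 ND cells (0.614%, 0.433 to 0.845%) and 25 HFD cells (0.402%, 0.260 to 0.592%). These included 2 of the 2 ND and 5 of the 6 HFD cells among the 8 described above. Ighm was the leading heavy chain gene in 34 of the 37 and 24 of the 25. Most were B lineage-like, 31 in ND and 14 in HFD, with 13 and 7 in the cycling stage. Slamf7 was present in 37 and 24, and only 3 and 7 had a Jchain UMI. Among the 5 genes the rule thus drew largely on Slamf7, which was at 436 and 391 UPM in Vpreb1-high cells and 56.0 and 43.9 UPM in mature B-like cells.

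Outside the B lineage, the members were low, with exceptions. The cells left unnamed, 236 in ND and 168 in HFD without the Jchain-high cells, held Ighm at 1505 and 1188 UPM and Igkc at 2478 and 2113 UPM. They include a cluster of 33 ND and 17 HFD cells with both Cd79a and the neutrophil marker Retnlg among its leading genes. The classes below are the named ones. Neutrophil-like cells, the largest class, held 89.8 UPM (ND) and 92.4 UPM (HFD) of Ighm and an Ighm UMI in 31.7% and 33.7% of cells. Dendritic-like cells, 42 in ND and 56 in HFD, stood apart, with Ighm at 916 UPM (830 to 1008) and 1011 UPM (933 to 1093) and a UMI in every cell. They also held Iglc3 at 369 and 411 UPM, with a UMI in 52.4% and 53.6% of cells. Iglc1 was at only 10.9 and 8.16 UPM and Igkc at 280 and 299 UPM. Iglc2, the near-identical partner of Iglc3, was not alike in the libraries. It stood at 177 UPM in ND and 29.4 UPM in HFD, from 81 and 18 UMIs (ratio HFD over ND 0.166, 0.0937 to 0.279). By cells, an Iglc2 UMI was found in 21.4% (ND) and 19.6% (HFD), and the highest cell held 20 and 5 of the UMIs. Siglech, a marker of plasmacytoid dendritic cells, was detected in 40 of the 42 ND cells and in all 56 HFD cells. In the Siglech-positive cells without a UMI of Cd79a, 35 in ND and 53 in HFD, Ighm was at 1007 and 983 UPM and Iglc3 at 435 and 407 UPM, so that the pattern was as large without cells that carried a B cell marker. In these cells the Igkc to Ighm ratio was 0.161 (0.119 to 0.215) and 0.258 (0.213 to 0.310). Over all dendritic-like cells it was 0.306 (0.249 to 0.373) and 0.296 (0.249 to 0.349), against 2.40 and 2.21 in B lineage-like and 0.894 and 1.06 in neutrophil-like cells. A low ratio was not particular to dendritic-like cells. It was 0.324 and 0.411 in hematopoietic progenitor-like cells without the Jchain-high cells, and 0.397 and 0.251 in macrophage/monocyte-like cells.

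Macrophage/monocyte-like cells held an Ighm UMI in 72.3% and 72.9% of cells, at 205 and 203 UPM, with an Igkc to Ighm ratio of 0.397 and 0.251. T-like cells (205 and 163 UPM) and NK-like cells (241 and 212 UPM) had an Ighm UMI in 46.3% to 50.4% of cells. These shares were taken at unlike depth. The median was 11192 and 11078 UMIs in macrophage/monocyte-like, 6555.5 and 6891 in T-like and 5072 and 5344.5 in NK-like cells. The intervals of NK-like, T-like and macrophage/monocyte-like cells overlapped in ND, whereas in HFD that of T-like cells (144 to 185 UPM) lay below that of macrophage/monocyte-like cells (192 to 214 UPM). In hematopoietic progenitor-like cells, without the 8 cells with high Jchain, Ighm was at 113 and 97.3 UPM. Mesenchymal-like cells were among the lowest, at 52.0 and 56.0 UPM. From the top, the order of Ighm levels in both libraries was B lineage-like, dendritic-like and then NK-like cells among the named classes other than pericyte/mural-like cells, which stood at 247 UPM in ND and 78.1 UPM in HFD from only 32 and 59 cells.

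**Figure D4:**
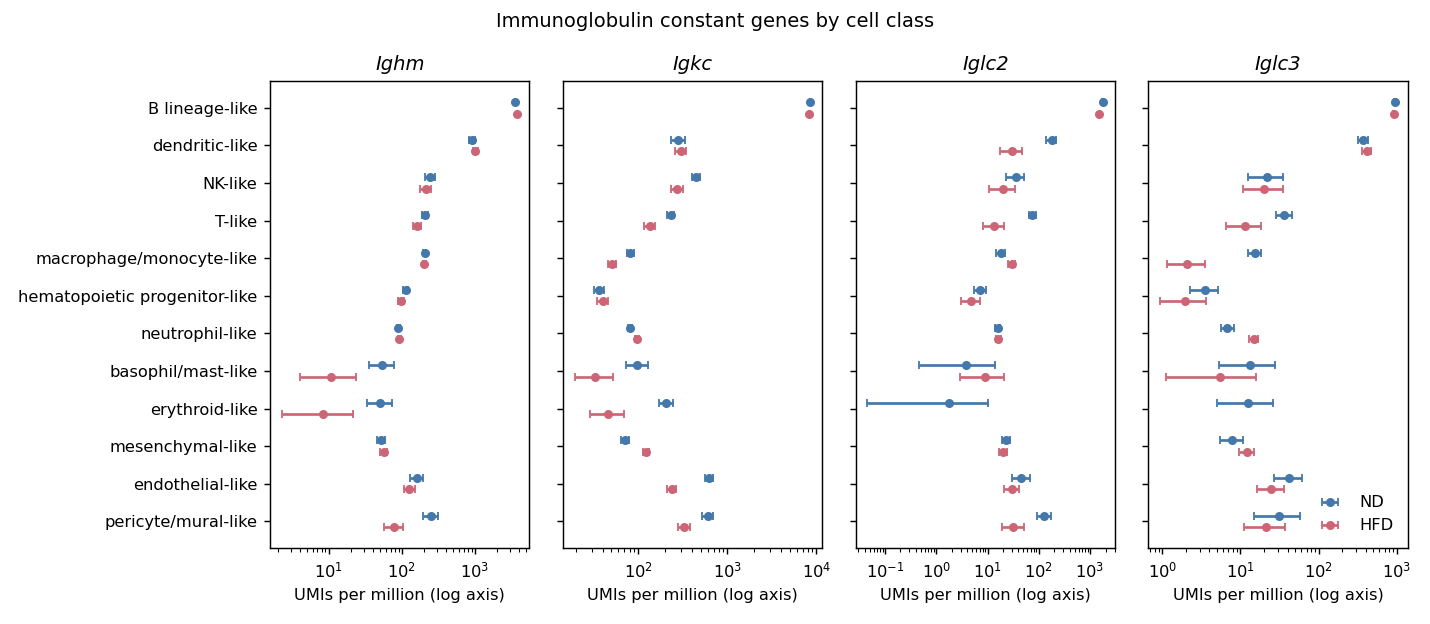
Level of Ighm, Igkc, Iglc2 and Iglc3 in the 12 named cell classes, in UPM on log axes, for ND and HFD, with 95% Poisson intervals, without the 8 cells with 40 or more Jchain UMIs (a level of 0 is not drawn). Dendritic-like cells come next to B lineage-like cells for Ighm (916 and 1011 UPM) and Iglc3 (369 and 411 UPM), but not for Igkc.

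Between the diets, the members were close to each other once the Jchain-high cell of ND was left out. Over all B lineage-like cells, Igha stood at 275 UPM in ND and 22.1 UPM in HFD (ratio HFD over ND 0.0803) and Jchain at 23.0 and 9.23 UPM (0.401). Both were more than 1.5-fold lower in HFD, against 6.35% of all genes, while 0 members were more than 1.5-fold higher, against 4.05%. Both rested on 1 ND cell. Without it, Igha was at 18.5 and 22.1 UPM (1.20, 0.948 to 1.51) and Jchain at 8.26 and 9.23 UPM (1.12, 0.783 to 1.60), and 0 of the 8 members differed by 1.5-fold.

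For the other members the ratio over all B lineage-like cells lay between 0.861 and 1.08. Ighm was at 3535 UPM in ND and 3780 UPM in HFD (1.07, 1.05 to 1.09), Ighd at 174 and 188 UPM (1.08, 1.00 to 1.17) and Igkc at 8560 and 8361 UPM (0.977, 0.966 to 0.988). Iglc1 was at 1641 and 1428 UPM (0.870, 0.848 to 0.893), Iglc2 at 1774 and 1527 UPM (0.861, 0.840 to 0.883) and Iglc3 at 955 and 922 UPM (0.965, 0.934 to 0.997). These intervals exclude 1 by counting alone, and the spread between mice is not known. The stage make-up also differed between the libraries. With the same stage weights in both, the ratio was 1.20 for Ighd, 1.04 for Igkc, 0.940 for Iglc1 and 1.03 for Iglc3.

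Within stages the same picture held, with exceptions. In Vpreb1-high cells 2 of the members with at least 20 UMIs over both libraries were past 1.5-fold, Igkc lower (0.445) and Iglc1 higher (28.1) in HFD. Ighd (0.570, from 10 and 8 UMIs) and Jchain (0.475, from 3 and 2 UMIs) were past it too but under that limit. No share over all genes was taken for that stage. The Igkc value rested largely on 2 ND cells and the Iglc1 value on 1 HFD cell. In cycling and Rag1-high cells 0 members with at least 20 UMIs over both libraries were past 1.5-fold, and no share over all genes was taken there. Jchain in cycling cells was under that limit, with a ratio of 0.644 from 9 and 6 UMIs. In immature B-like cells, 1 member was 1.5-fold or more higher in HFD, against 5.47% of all genes, and 0 were lower, against 6.6%. This was Igha, with 49 ND and 78 HFD UMIs (1.84, 1.27 to 2.68), at 15.9 and 29.1 UPM, beside 14.0 and 12.3 UPM in neutrophil-like cells. In mature B-like cells, 1 member was higher, against 8.64%, and 0 were lower, against 8.01%. This was Jchain, with 10 and 16 UMIs (1.83, 0.780 to 4.50). Ighd in mature B-like cells had 851 ND and 929 HFD UMIs (1.25, 1.14 to 1.37), beside 1.09 (1.03 to 1.15) for Ighm in the same cells. Iglc1 in Rag1-high cells (1.29, 1.18 to 1.41) and in immature B-like cells (0.896, 0.871 to 0.921) lay on opposite sides of 1. The value of 1.29 included the Rag1-high sub-cluster of 73 ND and 4 HFD cells. In the other Rag1-high sub-cluster Iglc1 was also higher in HFD, at 1383 UPM (1264 to 1510) in ND and 1565 UPM (1483 to 1650) in HFD. No interval of the ratio was taken there, and the overlap of the level intervals does not show whether it held 1.

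**Figure D5:**
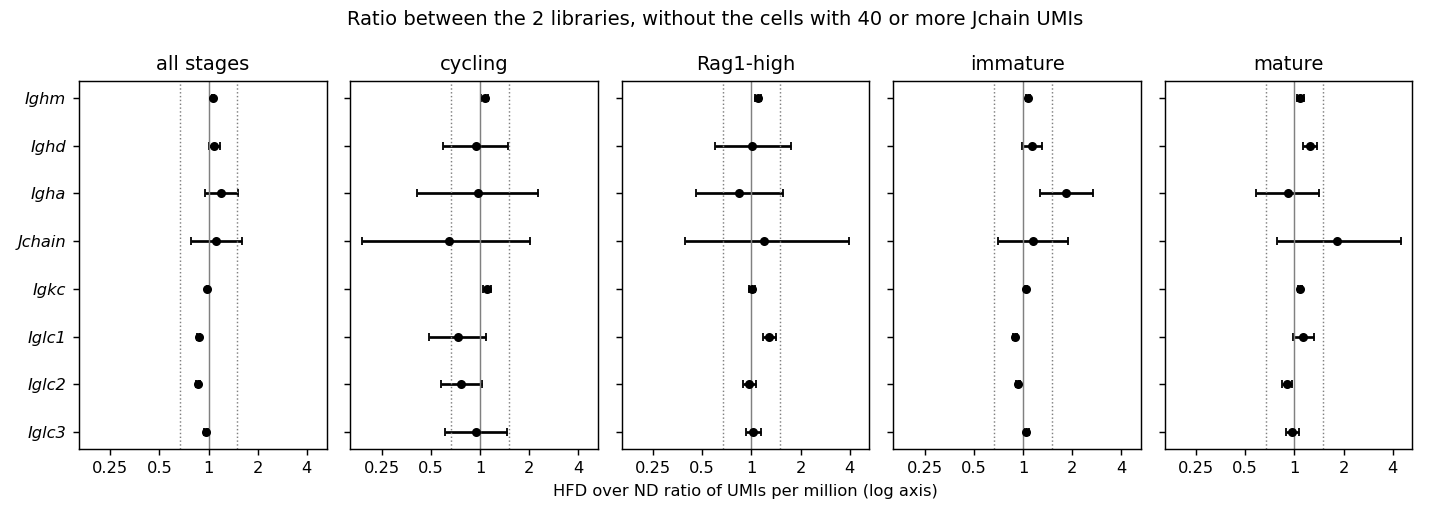
Ratio of HFD over ND levels for each member, on a log axis, in all B lineage-like cells and in the 4 stages other than Vpreb1-high, without the cells with 40 or more Jchain UMIs. Bars are 95% counting intervals and dotted lines mark 1.5-fold, and in the panel of all stages the 8 points lie between 0.860 and 1.20.

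The partners of the constant chains were followed in 3 lists. Of 18 genes of the B cell receptor complex and its signaling, 17 could be compared between Rag1-high and cycling cells, and 7 of them were higher by 2-fold or more in both libraries (11.6% of all genes) and 0 lower (11.8%), with a median log2 ratio of 0.77 (ND) and 0.89 (HFD) beside 0.08 and 0.06 for all genes. Cd79b, the partner of Cd79a in the receptor, went from 680 and 735 UPM to 2597 and 3262 UPM, and Syk, the kinase next to the receptor, from 120 and 129 UPM to 343 and 473 UPM. From immature to mature B-like cells, 1 of 18 was higher, against 2.82% of all genes, and 3 were lower, against 9.97%, with medians of -0.71 and -0.51 beside -0.31 and -0.28. Cr2, a complement receptor, went from 24.9 and 15.3 UPM to 73.6 and 62.5 UPM, and Cd79b from 2677 and 2788 UPM to 477 and 463 UPM, both markers used to name the stages. Cd72, an inhibitory coreceptor, went from 736 and 865 UPM to 148 and 141 UPM. Between the diets 0 of the 18 differed by 1.5-fold in B lineage-like cells, with a median log2 ratio of 0.06 beside 0.05 for all genes.

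Of the 7 genes for the surrogate light chain and for recombination, which in part named the stages, 4 were lower (11.8% of all genes) and 1 (Rag1) higher (11.6%) in Rag1-high than in cycling cells, with medians of -3.67 and -3.59. Vpreb1 was at 3566 UPM (ND) and 4433 UPM (HFD) in Vpreb1-high cells and at 42.9 and 54.2 UPM in Rag1-high cells, where Igkc was already abundant. Of the 18 genes for the plasma cell program and secretion, 16 could be compared at the same step, with 7 higher and 1 lower against the same 11.6% and 11.8%, and with medians of 0.97 and 0.74 beside 0.08 and 0.06. Sec11c, of the signal peptidase, went from 370 and 424 UPM to 794 and 1041 UPM. From immature to mature B-like cells 1 of 17 was higher, against 2.82%, and 3 were lower, against 9.97%, with medians of -0.75 and -0.51. Between the diets 1 of 17 was lower in HFD and 0 higher, against 6.35% and 4.05%, and 0 of the 7 genes of the other list differed by 1.5-fold.

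Other genes followed the pattern of single members over 32 groups of cells (classes and stages in each library). Likeness was taken as Pearson's r of log2(UPM + 10), given as a description, since groups of a library share depth and free RNA and the groups were formed from the same cells. Ighd was most like Bank1 (r = 0.96), an adaptor of B cell receptor signaling, followed by Fcmr, the Fc receptor for IgM, Gm31243, Cd22 and Fcrl1. Ighm was most like Siglecg (r = 0.90), an inhibitory receptor of B cells, followed by A630001G21Rik, Mzb1, Irf4 and Ap1s3. Igkc was most like Ralgps2 (r = 0.85), with Siglecg, Blk and C87436 also among its closest genes.

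Among the lambda genes, Iglc1 was most like Klhl14 (r = 0.93), followed by Srpk3, 2010309G21Rik, 4930426D05Rik and Gm30054, and Iglc3 like Tmem163 (r = 0.95), Ly6d, Srpk3, Rubcnl and A430035B10Rik. Iglc2 followed Coq8a (r = 0.83), Ralgps2, C87436, B3gnt5 and Srpk3. Srpk3, a kinase of splicing factors, was thus named for all 3 lambda genes, and without the 8 Jchain-high cells also for Igkc (r = 0.91). Without the 8 Jchain-high cells Igkc was most like Fcrla (r = 0.93), Ighm like Irf4 (r = 0.95) and Iglc2 like Srpk3 (r = 0.94), while Bank1, Klhl14 and Tmem163 still led for Ighd, Iglc1 and Iglc3. For Igha (Prg2, Epx, Elane, Mphosph10 and Sfn) and Jchain (Prg2, Epx, Gm50022, Elane and Prtn3) the leading genes included granule genes of myeloid cells, and 6 of the 8 Jchain-high cells lay among the hematopoietic progenitor-like cells. Without those 8 cells, Igha was most like Arid4b (r = 0.80) and Jchain like Med13 (r = 0.82), both at low levels.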

How the data were processed

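Cell Ranger 6.0.1 was run by the authors (header of the matrices), against mm10 according to the submitters' processing notes. The deposited values are whole UMI counts per gene and cell barcode, without normalization, and the barcodes had already been called as cells. Coordinates and lambda gene sequences were read from GENCODE M21.

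Kept cells of both libraries were normalized with SCTransform (sctransform 0.4.2) and clustered in Seurat 5.3.0 with 30 principal components at a resolution of 0.5, without immunoglobulin genes and Jchain, which gave 29 clusters. B lineage-like cells were clustered again at a resolution of 0.4. Classes were named from fixed marker lists. Stages were named after the sub-clusters were seen, from the mean log2 fold of those lists over the median sub-cluster: cycling above 2, Vpreb1-high precursor above 2, Rag1-high precursor above 0.5, then immature above 0, otherwise mature. Doublets were scored with Scrublet (scanpy 1.11.5), whose own threshold called 9 ND and 23 HFD cells (0.149% and 0.370%) and so did not work here. No cell was removed in the main analysis, and leaving out the 5% with the highest scores was added after seeing the data.

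Levels are UMIs per 1000000 with exact Poisson intervals, ratios have exact conditional binomial intervals and shares exact Clopper-Pearson intervals (SciPy 1.17.1). The intervals were tested on counts simulated from a Poisson law, the law that they assume. That test cannot show how they behave where the UMIs of a gene lie in few cells. A gene entered a comparison with at least 20 UMIs over the groups compared. Named genes are the 8 members, the other heavy chain constant genes, for each member the 5 genes other than immunoglobulin genes with the highest correlation among those with at least 200 UMIs, and at most 6 genes of each of 3 lists, of which 1 correlated gene is not reported here. The members, lists and rules were chosen with earlier results of these data known.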

Additional observations from a re-analysis of the deposited data

Results flagged for a closer look

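For 2 members the ratio of HFD over ND lay above 1 in some B cell stages and below 1 in another, each beyond counting error, and the difference between the stages was not tested since each diet is 1 library. For Igkc the ratio was 1.10 in cycling, 1.05 in immature and 1.08 in mature B-like cells but 0.445 in Vpreb1-high precursor-like cells, where 168 UMIs in ND stood against 105 in HFD. Of the 168, 128 lay in 2 cells (69 and 59), and without the 2 highest cells of each library the ratio was 1.13 (0.751 to 1.72). For Iglc1 it was 28.1 in Vpreb1-high and 1.29 in Rag1-high precursor-like cells but 0.896 in immature B-like cells. The value of 28.1 rested on 2 UMIs in ND and on 1 HFD cell with 79 UMIs. That of 1.29 included a sub-cluster of 73 ND and 4 HFD cells. In the other Rag1-high sub-cluster Iglc1 was at 1383 UPM (1264 to 1510) in ND and 1565 UPM (1483 to 1650) in HFD. No interval of the ratio was taken there, and the overlap of the level intervals does not show whether it held 1.

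Members were also abundant in 4 HFD barcodes that the filter of more than 500 genes left out. These barcodes had 173 to 399 detected genes and 58, 77, 20 and 66 Jchain UMIs, and the members took between 49.2% and 62.7% of their UMIs. In 2 of them Igkc was the leading light chain gene (768 and 315 UMIs) and in the other two Iglc2 (408 and 312 UMIs), all with Ighm as the heavy chain gene (33 to 212 UMIs). No ND barcode outside the filter had 10 or more Jchain UMIs.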

How the results depend on the processing

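Each of 99 results was recomputed under the alternatives that bear on it, which gave 653 values. Of the 132 that concern whole comparisons, 89 stayed within the counting interval of the main value or, for counts, within 1.5-fold of the main count. Of the rest, 30 left the interval, 11 were lower counts and 2 higher counts. Of the 521 for single genes, 435 stayed within the interval and 77 left it. In the other 9, a ratio past the fold limit turned to the other side of 1. The summed level of the members in B lineage-like cells was 16940 UPM in ND and 16240 UPM in HFD, against 16750 and 21880 UPM with immunoglobulin genes in the clustering and 21090 and 20890 UPM as a mean over cells. It was 16610 UPM in ND without the cells with 40 or more Jchain UMIs, and 16410 UPM in HFD without the top 5% of doublet scores. The 2 members 1.5-fold apart became 1 after thinning each cell to 1000 UMIs and 0 without the top doublet scores or the Jchain-high cells. The Igha ratio of HFD over ND (0.0803) turned to 1.12 without the top doublet scores and 1.20 without the Jchain-high cells. The Jchain ratio (0.401) turned to 1.03 after thinning, 1.13 and 1.12 without those cells, and 23.4 with immunoglobulin genes in the clustering. Over all cells Jchain was higher in mature than in immature B-like cells of ND, and the ratio turned to 0.582 and 0.575 without the same cells. The Igkc ratio in Vpreb1-high cells (0.445) turned to 1.13 without the 2 highest Igkc cells of each library. At a sub-cluster resolution of 0.2 and without the sub-cluster of 1 library, the ND share of immature B-like cells was 55.8% and 53.5%, and that of Rag1-high cells 6.84% and 7.25%.

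Mixed cells were 50.1% (ND) and 41.0% (HFD) with limits of 80% and 20%, and 79.6% and 73.7% with 95% and 5%, and lambda was 22.0% of called ND cells with 95% and 5% and 15.3% of called HFD cells with 80% and 20%. The plasma rule counted 198 and 159 cells with at least 1 of 5 genes, 5 and 5 with at least 3, and 2 and 6 by Jchain. The summed level in neutrophil-like cells was 258 and 332 UPM after thinning, 215 and 209 UPM without Scrublet's calls and 154 and 175 UPM without the top doublet scores. Ighm in dendritic-like cells was 1048 and 875 UPM after thinning. In hematopoietic progenitor-like cells the sum was 2527 and 14720 UPM after thinning, 138 and 140 UPM without the top doublet scores and 173 and 152 UPM without the Jchain-high cells. Over all genes, 134 were higher and 221 lower in HFD by 2-fold or more, and 119 and 199 were by 1.5-fold among genes with at least 100 UMIs. The causes were not tested beyond what these alternatives take out by construction. No paired analysis was possible because each diet is 1 pooled library, for which reason no replicate could be left out either. Counting error is the only error that could be given, and levels near those of neutrophil-like cells cannot be told from free RNA at this depth.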

Other observations

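The other heavy chain constant genes were rare, with 0 UMIs of Ighg1 and Ighe in both libraries, 5 (ND) and 0 (HFD) of Ighg2c and 2 and 34 of Ighg3 in kept cells. Ighg2b, which encodes the heavy chain of an IgG subclass, was the exception and lay mostly in early B lineage-like cells. Without the Jchain-high cells it had 29 UMIs in 7 of 58 Vpreb1-high precursor-like cells of ND (98.8 UPM, 66.1 to 142) and 17 UMIs in 3 of 69 of HFD (41.2 UPM, 24.0 to 66.0). Cycling precursor-like cells held 74 UMIs in 17 of 126 ND cells (35.6 UPM) and 21 UMIs in 5 of 125 HFD cells (9.76 UPM), of which 16 were in 1 cell. In immature B-like cells 5 and 2 UMIs were counted, and in neutrophil-like cells 0 of 2405 and 0 of 2431 cells had a UMI, which allows levels of up to 0.230 and 0.216 UPM (upper end of the Poisson interval). The highest cell had 13 Ighg2b UMIs in ND and 16 in HFD.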
